A study of Mus musculus with 27 samples.

Results

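The chromatin-to-cytoplasm shift between mouse embryonic stem cells and neural progenitors is the change, gene by gene, in how polyadenylated RNA divides between the chromatin and the cytoplasm of these cells. It was taken from the deposited read counts as (mNPC chromatin minus mNPC cytoplasm) minus (mESC chromatin minus mESC cytoplasm) on the log2 scale. The contrast uses 12 of the 27 libraries of the series, 3 in each of 4 groups, and 18226 of the 37332 genes in the count table had enough counts to be tested. A positive value means that the chromatin-to-cytoplasm ratio of a gene was higher in mNPC, and a negative value that it was lower there. Below, a ratio is said to have risen or fallen where this difference passed an adjusted p of 0.05 and was at least 1 in size on the log2 scale.

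The mESC are the E14 line, kept on gelatin with LIF, the cytokine that holds mouse stem cells in self-renewal. The mNPC are a neural progenitor line, labelled C2 and established in the submitters' laboratory, grown in DMEM/F12 with B27 without vitamin A and daily EGF and FGF at 10 ng/ml. The labels name no genetic change or drug for either line. Each cell type is 1 line, so cell type, line and culture medium cannot be told apart. Fractions were prepared in biological triplicate, RNA longer than 200 nt was selected for poly(A) tails, and strand-marked libraries were sequenced from both ends for 100 bp. The remaining libraries hold the nucleoplasm of both lines and the fractions of primary cortical neurons (mCtx), and they enter the fit and a few side-by-side values.

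Polyadenylated RNA on chromatin comprises transcripts that have been cleaved and tailed but not yet released, transcripts held in the nucleus by unspliced introns, and noncoding RNAs that work there. RNA in the cytoplasm has been exported through the nuclear pore and is available to ribosomes, either free in the cytosol or on the endoplasmic reticulum (ER), whose membrane continues into the nuclear envelope. A gene's ratio between the fractions therefore depends on release, export and decay as well as on where its product is made. Levels are given as CPM, the count scaled to the TMM-adjusted library size. A level is therefore a proportion within its own fraction, and in such bulk samples fewer cells of a type and less RNA per cell cannot be told apart.

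Pluripotency and neural progenitor lists matched the labels of both lines. Pluripotency genes held 1.22% ± 0.0518 of counts in mESC chromatin and 1.55% ± 0.0565 in mESC cytoplasm, against 0.2% ± 0.00441 and 0.177% ± 0.018 in mNPC (SD, n = 3). Pou5f1 and Zfp42 had no count in the 6 mNPC libraries. Neural progenitor genes held 1.58% ± 0.0332 and 1.69% ± 0.0281 in mNPC against 0.174% ± 0.0102 and 0.145% ± 0.00824 in mESC. Astrocyte and oligodendrocyte lineage genes were also higher in mNPC, at 0.299% ± 0.0302 and 0.175% ± 0.00761 of chromatin counts against 0.0237% ± 0.00137 and 0.0284% ± 0.00595. Microglia, fibroblast and mural, and endoderm and mesoderm genes stayed at or under 0.062% of counts in every one of the 12 libraries, and Dcn was at 0 in all of them. Fibroblast and mural genes were still higher in mNPC, at 0.0555% ± 0.00557 of chromatin and 0.0273% ± 0.00481 of cytoplasmic counts, against 0.00971% ± 0.00161 and 0.00293% ± 0.000862. In mNPC nucleoplasm fibroblast and mural genes held 0.227% ± 0.0204. Microglia, endoderm and mesoderm genes were lower in mNPC than in mESC. The 12 libraries held 12073063 to 23608781 counts, and the mESC libraries numbered 1 stood farther from their replicates than any other of the 12.

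In the 18226 genes tested, the ratio differed by the call rule in 5104 (28.0%). It rose in mNPC for 1878 genes (10.3%) and fell for 3226 (17.7%), so 36.8% of the calls were upward (edgeR quasi-likelihood F-test, Benjamini-Hochberg adjustment over all genes tested). The median log2 difference over all genes was -0.19, since the median ratio went from 0.37 in mESC to 0.12 in mNPC. Among the genes called, the median size was 1.43 upward and -1.79 downward. The calls include 374 genes with 3 or fewer counts over a group. With libraries taken by number, the 3 mNPC ratios lay wholly above or wholly below the 3 mESC ratios in 4972 of the 5104 (97.4%). Over all genes tested, 28.0% had the mNPC ratios wholly above and 35.8% wholly below.

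The split between directions depends on scaling and quantification. With library totals in place of TMM, 1295 genes rose and 3930 fell (24.8% of calls upward), and the median difference of all genes was -0.40. On log2(TPM + 1) of the authors' transcript values, 2501 rose and 2548 fell (49.5% upward) with a median of 0.01, and 3053 of those calls were for the same gene and direction as in the counts against 67 in the opposite one. Gene groups are therefore described below against the background of all genes, of which 10.3% rose and 17.7% fell. Groups whose calls turn with the quantification are named as such.

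**Figure D1:**
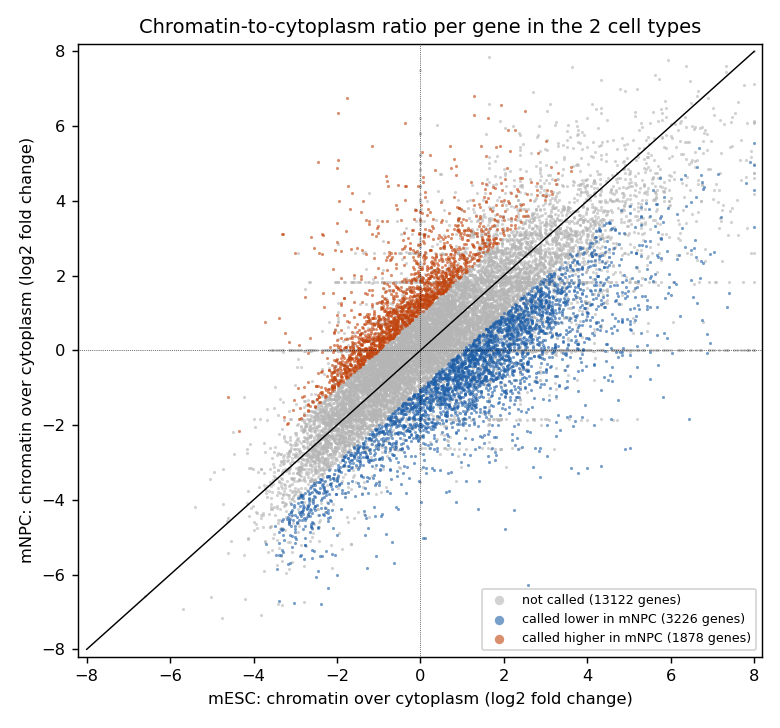
Each point is 1 of the 18226 genes tested, with its fitted log2 fold change of chromatin over cytoplasm in mESC (x axis) and in mNPC (y axis), drawn no farther than 8 in either direction. The diagonal marks equal ratios. The 3226 genes called lower lie below it and the 1878 called higher lie above it.

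Most calls came with a change of level in a fraction, but no fraction accounted for them alone. Among genes whose ratio rose, the cytoplasmic level alone was called changed between the cell types in 604 (32.2%), the chromatin level alone in 378 (20.1%) and both in the same direction in 580 (30.9%). The corresponding counts among genes whose ratio fell were 1107 (34.3%), 669 (20.7%) and 1120 (34.7%). Both fractions moved in opposite directions in 27 and 85 genes. Over all genes tested, the cytoplasmic level was called higher in mNPC for 29.8% and lower for 29.6%, and the chromatin level for 25.3% and 31.9%.

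The ratio itself crossed from one side to the other in 204 genes. Of these, 157 were richer in chromatin in mESC and richer in cytoplasm in mNPC, and 47 the reverse, by the same call rule within each cell type. Within mESC 56.0% of all genes were called to a side, 34.4% to chromatin and 21.6% to cytoplasm, and within mNPC 48.9% were, 27.5% to chromatin and 21.3% to cytoplasm. A larger group lost its side: 1249 genes called richer in chromatin in mESC had no call in mNPC. In the upward direction, 789 genes with no call in mESC were richer in chromatin in mNPC.

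**Figure D2:**
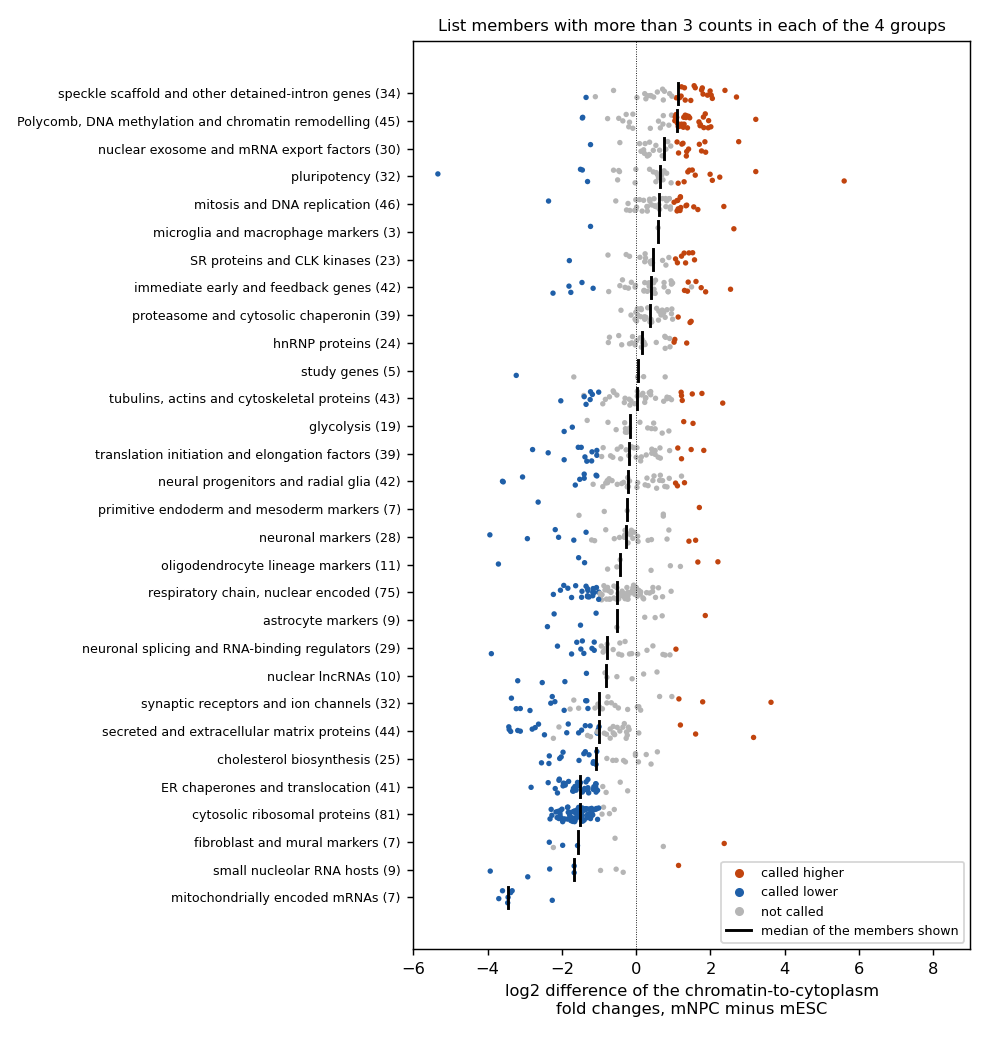
Log2 difference of the chromatin-to-cytoplasm fold changes, mNPC minus mESC (x axis), for the members of 30 gene lists (number shown in brackets). Points are genes with more than 3 counts in each of the 4 groups, coloured by their call, and the bar is their median. Ribosomal protein and ER genes lie almost wholly below 0, while speckle and chromatin regulator genes lie mostly above it.

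Messenger RNAs of the cytosolic ribosomal proteins had lower chromatin-to-cytoplasm ratios in mNPC as a block. Their ratio fell in 77 of 81 tested members and rose in none, where 17.7% of all genes fell, and the median difference was -1.52 with a range of -2.32 to -0.59. All 81 had an adjusted p under 0.05, and in all 81 the mNPC ratios lay wholly below those of mESC. By library number, the median ratio of the list was -2.62, -2.75 and -2.63 in mESC and -3.81, -4.28 and -4.64 in mNPC. These mRNAs were already richer in cytoplasm in mESC, and the distance widened in mNPC. The difference lay in the chromatin fraction, where 74 of 81 members were called lower in mNPC. In the cytoplasm 2 were called higher and 3 lower. Their summed share went from 2.17% ± 0.222 to 0.595% ± 0.0918 of chromatin counts and from 9.36% ± 1.4 to 8.67% ± 0.99 of cytoplasmic counts (SD, n = 3). On log2(TPM + 1), 72 members fell.

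Rpl4, a protein of the large subunit (mm10 chromosome 9, 64173387 to 64178562, + strand), stood at 782, 734 and 696 CPM in mESC chromatin and at 151, 132 and 117 CPM in mNPC chromatin. Its cytoplasmic levels were 3411, 3238 and 3231 CPM in mESC and 1989, 2065 and 2371 CPM in mNPC. Neither fraction overlapped between the cell types, and the gap in chromatin was the wider. The log2 difference was -1.85 ± 0.19 (SE; adjusted p = 1.3e-08). Small nucleolar RNA genes lie inside Rpl4 on the same strand, and their reads cannot be told apart from its own. Rpsa, a small subunit protein, fell by 1.47 (SE 0.21). Rpl8 and Rpl6, at -0.88 ± 0.20 and -0.72 ± 0.19, were below the minimum size, and Rpl8 passed it, at -1.11, without the mESC cytoplasm library numbered 1.

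Ribosomal protein mRNAs are known for a run of pyrimidines at their 5′ end through which their translation is controlled. Windows from 50 bases before to 50 bases after the RefSeq start were read for the 60 members that matched. A match in them can lie before the start or within the transcript, and need not be that 5′ run. The letters CTTTC occur on the sense strand in 33 of these 60 windows (55.0%), and their reverse complement in 10.0%. Among protein-coding genes tested, 12.2% of windows hold CTTTC. The shares were 13.3% of those whose ratio fell and 10.8% of those whose ratio rose, both near the share of all such genes. It was 1 of 5 runs searched, the others being CTCTT (53.3% of ribosomal protein windows and 12.9% of those of protein-coding genes tested), CTTCC (50% and 24.9%), CTTTT (23.3% and 9.89%) and CTTTCC (31.7% and 5.19%). These runs overlap one another, and a match is a description of letters, not of a site.

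The 6 members with the largest falls among those with the letters, chosen after their values were seen, are shown as 30 bases around them (RefSeq, GRCm38.p6, the assembly also called mm10), 5′ to 3′ on the gene's strand with CTTTC in capitals. They lie at chr7:24884623-24884652 (+), chr4:152325682-152325711 (+), chr10:128626482-128626511 (-), chr1:39367870-39367899 (+), chr9:64173358-64173387 (+) and chr3:90213639-90213668 (-), in the order of the lines.
Rps19: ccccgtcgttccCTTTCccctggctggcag
Rpl22: tctgactcctccCTTTCccgacagccgact
Rps26: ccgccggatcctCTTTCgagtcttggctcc
Rpl31: acggctacgcgaCTTTCcctcccacaaacc
Rpl4: caagtgacaagtCTTTCcttttcctgtggg
Rps27: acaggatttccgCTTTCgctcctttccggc
Counted from the RefSeq start, the capital letters begin at -41 in Rps19, -32 in Rpl22 and 8 in Rps26. In Rpl31, Rpl4 and Rps27 they begin at 32, -17 and -8. Negative positions lie before the start, and none of these runs begins at the start itself. The log2 differences of these genes run from -2.11 ± 0.27 for Rps19 to -1.83 ± 0.25 for Rps27.

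Translation factors divided. Among 39 members, 11 fell and 4 rose, where 17.7% of all genes fell and 10.3% rose, so the rises were near the share of all genes. The median difference was -0.20, also near that of all genes. Eef1a1, which brings aminoacyl-tRNA to the ribosome, stood at 1465, 1348 and 1661 CPM in mESC chromatin against 693, 520 and 500 CPM in mNPC, with cytoplasmic levels of 13600 to 17092 CPM and 14408 to 17700 CPM. Its chromatin level was lower in every mNPC library while the cytoplasmic ranges overlapped, and the difference was -1.48 ± 0.22 (adjusted p = 3.6e-06). The growth-linked Tpt1 fell by 2.37 (SE 0.20), and Eef2, the translocation factor, by 1.06 (SE 0.21), a call that Eef2 lost at -1.0 without the mNPC cytoplasm library numbered 3. Eef1d, which reloads Eef1a1 with GTP, had a difference of -0.42 ± 0.29 and did not pass the test. Initiation factors were called in both directions. Eif3b, a subunit of the complex that recruits mRNA to the small subunit, rose by 1.82 ± 0.33, Eif4g1, the scaffold of the cap complex, by 1.48 ± 0.28, and its relative Eif4g3 by 1.22 ± 0.20. Other subunits of the complex of Eif3b fell, Eif3e by 1.19 (SE 0.19) and Eif3j1, which has a near-identical copy that could share its reads, by 1.94 (SE 0.22). Eef1d, Eif3e and Eif3j1 were chosen after their values were seen.

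Host genes of small nucleolar RNAs, spliced noncoding transcripts whose introns carry the guide RNAs of ribosome assembly, were called mostly downward. The ratio fell in 5 of 9 tested members and rose in 1, with a median difference of -1.67. By the values of log2(TPM + 1), 4 fell and 1 rose, and the median was -0.61. Gas5 (chromosome 1, 161034422 to 161038539, + strand) had chromatin levels of 233, 454 and 424 CPM in mESC and 376, 342 and 289 CPM in mNPC, which overlap. Its cytoplasmic levels were 21.3, 15.4 and 14.6 CPM in mESC and 230.0, 230.0 and 248 CPM in mNPC. The cytoplasm alone therefore separated the cell types for Gas5, with a difference of -3.93 ± 0.25 (adjusted p = 8.4e-12). Snhg3 fell by 2.33 (SE 0.36). Zfas1 fell by 1.67 (SE 0.46), with 1 mESC cytoplasm library at 206 CPM and the others at 61.8 and 60.0 CPM, and by 2.67 without the first. Snhg20 rose by 1.14 ± 0.24 and was at 0.99 without the mESC cytoplasm library numbered 3. Several of these hosts have small nucleolar RNA genes inside them or genes on the other strand, and the strand setting of the authors' counting is not given in the sources used here.

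**Figure D3:**
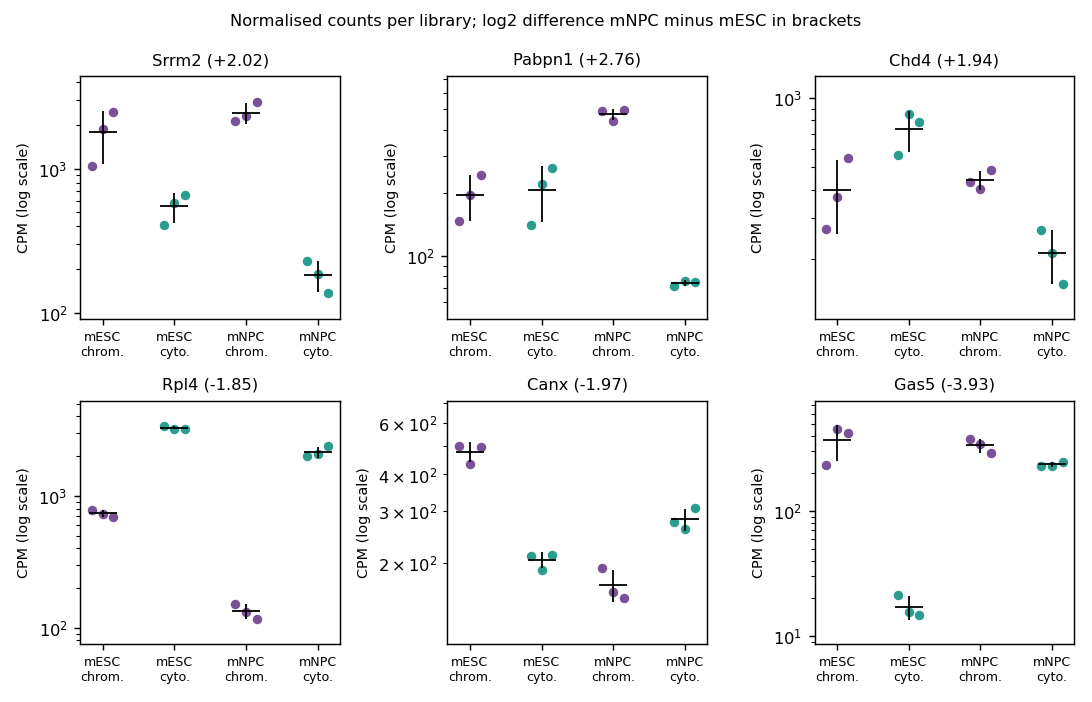
Normalised counts (CPM, log scale) of 6 genes in each of the 12 libraries, with the mean (bar) and SD (line) of 3 replicates. Srrm2, Pabpn1 and Chd4 have lower cytoplasmic levels in mNPC than in mESC, Rpl4 has a lower chromatin level, Canx has a lower chromatin and a higher cytoplasmic level, and Gas5 has a higher cytoplasmic level.

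Transcripts of the mitochondrial genome, which are made and translated inside the organelle, had the lowest median difference of the lists with a call. Of 11 tested members 7 fell, the median difference was -3.34, and the 4 others had 3 or fewer counts over a group. The mRNA mt-Co1, for a core subunit of cytochrome oxidase, stood at 3491, 2602 and 2472 CPM in mESC chromatin and at 3423, 1657 and 2246 CPM in mNPC chromatin, which overlap. In the cytoplasm it stood at 238, 178 and 151 CPM in mESC and at 1815, 1691 and 2810 CPM in mNPC, a difference of -3.70 ± 0.32 (adjusted p = 1.2e-09). Those of mt-Nd1 and mt-Cytb, from NADH dehydrogenase and the cytochrome bc1 complex, fell by 3.45 (SE 0.29) and 3.38 (SE 0.32). Mitochondrial mRNAs were 4.1% ± 0.31 of counts in mESC nucleoplasm and 9.87% ± 1.49 in mNPC nucleoplasm, against 0.582% ± 0.102 and 0.524% ± 0.203 in chromatin and 0.0301% ± 0.00796 and 0.374% ± 0.103 in cytoplasm (SD, n = 3). These RNAs were thus found in every fraction and most in the nucleoplasm, and their part in the results for nuclear genes was not tested. Without the mitochondrial genes 1689 genes rose and 3395 fell.

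Nuclear genes of the respiratory chain moved the same way to a smaller degree. The ratio fell in 21 of 75 members (28.0%, against 17.7% of all genes) and rose in none, with a median difference of -0.52. Their cytoplasmic level was called higher in mNPC for 37 of 75 and their chromatin level for 19. Over all genes tested these shares were 29.8% and 25.3%, so the chromatin count was at the share of all genes. Cox8a, a small subunit of cytochrome oxidase, fell by 1.47 (SE 0.27), and Uqcrh, a hinge protein of the bc1 complex, by 1.3 (SE 0.37). The ATP synthase genes Atp5b and Atp5a1, which have the highest levels of the list, had differences of -0.04 ± 0.19 and 0.28 ± 0.19 and did not pass the test.

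The mRNAs of ER chaperones and of the ER translocation machinery had lower ratios in mNPC almost as completely as those of the ribosome. These proteins fold and import the products of membrane-bound ribosomes, and their own mRNAs are mostly translated at the ER. Their ratio fell in 37 of 41 members and rose in none, with a median difference of -1.5. The median ratio went from 0.64, the chromatin side, in mESC to -0.75, the cytoplasm side, in mNPC. By library number it was 0.78, 0.54 and 0.77 in mESC and -0.60, -0.71 and -1.01 in mNPC, with no overlap. Unlike the ribosomal proteins, the change lay mainly in the cytoplasm, where 25 of 41 were called higher in mNPC and 1 lower, against 2 higher and 11 lower in chromatin. Their share of counts was 0.233% ± 0.0108 in mESC cytoplasm and 0.56% ± 0.0543 in mNPC cytoplasm, and 0.559% ± 0.0523 and 0.412% ± 0.0397 in chromatin. In the nucleoplasm it was 1.94% ± 0.13 and 1.54% ± 0.0786, the highest of the 3 fractions in both lines. On log2(TPM + 1), 32 members fell.

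Canx, the membrane chaperone calnexin (chromosome 11, 50293961 to 50325673, - strand), stood at 502, 434 and 497 CPM in mESC chromatin and at 192, 159 and 152 CPM in mNPC chromatin. In the cytoplasm it stood at 211, 189 and 212 CPM and at 275, 260.0 and 308 CPM. Chromatin exceeded cytoplasm in every mESC library and lay below it in every mNPC library of the same number, and the difference was -1.97 ± 0.17 (adjusted p = 1.1e-09). P4hb, protein disulfide isomerase, fell by 2.12 (SE 0.30). Hsp90b1, the ER form of HSP90, fell by 1.62 (SE 0.28), through a cytoplasmic level of 168 to 190.0 CPM in mNPC against 49.9 to 92.8 CPM in mESC. Srpr and Manf, at -0.81 ± 0.17 and -0.90 ± 0.21, were below the minimum size. Srpr reached -1.06 without the mESC cytoplasm library numbered 2, and Manf reached -1.01 to -1.04 when any of 3 libraries was left out.

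Genes of cholesterol synthesis, whose enzymes sit in the ER membrane or feed it, followed. The ratio fell in 14 of 25 and rose in none, with a median difference of -1.08. Cytoplasmic levels were called higher in mNPC for 16 of 25, and chromatin levels for 1. Srebf1, a membrane-bound factor that turns on lipid synthesis, fell by 1.97 (SE 0.31), and its relative Srebf2 by 1.16 (SE 0.22). The soluble enzyme Hmgcs1 had a difference of -0.29 ± 0.46 and did not pass.

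Secreted and extracellular matrix proteins gave 23 falls and 3 rises among 54 members, with a median difference of -1.06. With each group at 3 or fewer counts set to a floor of 3 counts, which concerns 10 members, the median was -1.05. Where both fractions of a line are at the floor, the floor itself sets the ratio, so such a median is not a bound. Agrn, a heparan sulfate proteoglycan of basement membranes, was richer in chromatin in both lines and fell by 1.24 (SE 0.27). Ptn, a growth factor of progenitors, stood at 442 to 566 CPM in mNPC chromatin and 1114 to 1461 CPM in mNPC cytoplasm but under 0.4 CPM in every mESC library, so its difference of -2.47 ± 0.80 rests on 20 mESC counts and lost its call (-1.83) without the mESC chromatin library numbered 2. Bcan, a proteoglycan of neural matrix, and Fn1, fibronectin, did not pass, at -0.21 ± 0.38 and -0.36 ± 0.30. Mdk, a relative of Ptn, rose by 3.16 ± 0.37 while its level fell in both fractions, and it overlaps Chrm4 on the other strand. The 3 rises became 1 when any of 4 libraries was left out.

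**Figure D4:**
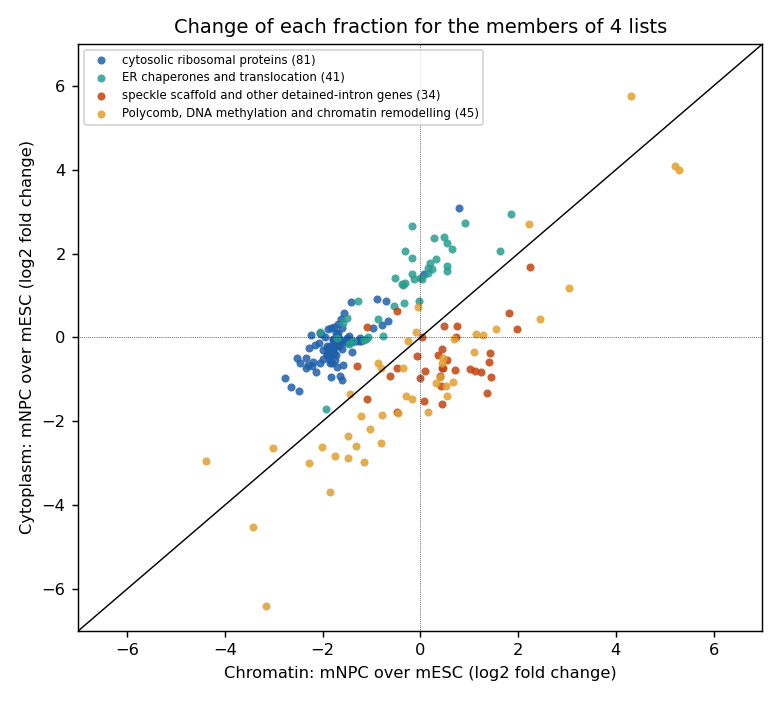
Log2 fold change of mNPC over mESC in chromatin (x axis) and in cytoplasm (y axis) for the members of 4 lists with more than 3 counts in each group. The diagonal marks equal change, and points above it have a lower chromatin-to-cytoplasm ratio in mNPC. Ribosomal protein genes are displaced to lower chromatin levels, ER genes to higher cytoplasmic levels, and most speckle and chromatin regulator genes lie under the diagonal.

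Genes of nuclear speckles and others known for detained introns, which keep a share of their polyadenylated transcripts unspliced in the nucleus, went the opposite way. Their ratio rose in 18 of 34 members and fell in 1, where 10.3% of all genes rose, and the median difference was 1.13. The list was richer in chromatin in both lines, with median ratios of 1.61, 1.66 and 1.41 in mESC and 2.64, 2.47 and 2.64 in mNPC by library number. Chromatin levels were called higher in mNPC for 10 members and lower for 3, and cytoplasmic levels lower for 6 and higher for 1. Over all genes tested, 25.3% were called higher in chromatin and 29.6% lower in cytoplasm. The first count was near its share of all genes, and that of lower cytoplasmic levels was below its share. On log2(TPM + 1), 17 rose and 1 fell.

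Srrm2, a scaffold of the speckle (chromosome 17, 23803187 to 23824739, + strand), stood at 1041, 1891 and 2468 CPM in mESC chromatin and 2133, 2295 and 2897 CPM in mNPC chromatin, which overlap. In the cytoplasm it stood at 408, 576 and 661 CPM in mESC against 228, 186 and 138 CPM in mNPC, all lower, and the difference was 2.02 ± 0.33 (adjusted p = 2.1e-05). The RNA helicases Ddx17 and Ddx5, which act in splicing and transcription, rose by 1.80 ± 0.21 and 1.47 ± 0.20. For Ddx17 the mNPC chromatin levels of 2186 to 2330 CPM lay wholly above the mESC levels of 732 to 936 CPM. Ewsr1, an RNA-binding protein, had a difference of 0.26 ± 0.18 and did not pass. The member that fell was Snrnp48, a protein of the minor spliceosome, at -1.35 ± 0.22.

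Other regulators of RNA processing had fewer calls. Of the SR proteins and their CLK kinases, which bind exons and set splice site choice, 8 of 23 rose and 1 fell, with a median difference of 0.44. Without the mESC cytoplasm library numbered 3, 5 rose and the median was 0.24, and with library totals the median was 0.23. Srsf6 stood at 465 to 651 CPM in mESC chromatin and 729 to 795 CPM in mNPC chromatin, with cytoplasmic levels of 346 to 486 CPM and 180.0 to 203 CPM, and rose by 1.57 ± 0.20. Srsf1 rose by 1.52 ± 0.26, and the rare member Srsf12 fell by 1.80 (SE 0.29). Of the hnRNP proteins, 3 of 24 rose and none fell, near the 10.3% of all genes that rose. The 3 became 1 without either of 2 mESC cytoplasm libraries, and the median of 0.17 became -0.04 with library totals and ran from -0.08 to 0.30 with 1 library left out. Hnrnpll rose by 1.36 ± 0.20, while Hnrnpa2b1 and Hnrnpa1 had differences of 0.78 ± 0.21 and -0.75 ± 0.23, both under the minimum size.

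Nuclear exosome and mRNA export factors rose in 12 of 30 and fell in 1, with a median difference of 0.75, and 13 rose on log2(TPM + 1). Their cytoplasmic level was called lower in mNPC for 16 of 30. Pabpn1, the nuclear poly(A)-binding protein (chromosome 14, 54892500 to 54898169, + strand), stood at 147, 195 and 242 CPM in mESC chromatin and 489, 439 and 494 CPM in mNPC chromatin. Its cytoplasmic levels went the other way, from 140.0, 220.0 and 262 CPM to 71.9, 76.2 and 75.1 CPM. Neither pair of groups overlapped, and the difference was 2.76 ± 0.27 (adjusted p = 6.8e-09). The predicted gene Gm20521 overlaps Pabpn1 on the same strand. Tpr, a filament protein of the nuclear pore basket, rose by 1.41 ± 0.39. Ddx39, an export helicase, and Chtop, an export adaptor, had differences of 0.85 ± 0.24 and 0.24 ± 0.14. The fall was that of Alyref2, an adaptor at 1.02 to 5.6 CPM, by 1.23 (SE 0.39), a call that was lost at -1.0 without the mESC chromatin library numbered 1 (edgeR adjusted p = 0.05).

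Polycomb, DNA methylation and chromatin remodelling genes, which write and read the silent and open states of chromatin, mostly had higher chromatin-to-cytoplasm ratios in mNPC. Among the lists they had the most rises, in 28 of 46 members against 2 falls, with a median difference of 1.12, and 32 rose and 1 fell on log2(TPM + 1). By library number the median ratio was -0.35, -0.21 and -0.34 in mESC and 0.18, 0.39 and 0.59 in mNPC. The cytoplasmic level was called lower in mNPC for 26 of 46 and higher for 5, and the chromatin level lower for 16 and higher for 10. Chd4, the ATPase of the NuRD complex (chromosome 6, 125095981 to 125130591, + strand), stood at 271, 373 and 549 CPM in mESC chromatin and 431, 403 and 488 CPM in mNPC chromatin. In the cytoplasm it went from 566, 849 and 783 CPM to 268, 213 and 156 CPM, and the difference was 1.94 ± 0.31 (adjusted p = 1.4e-05). Mtf2, a Polycomb accessory factor, rose by 1.82 ± 0.22. It overlaps Tmed5, a cargo adaptor of the secretory pathway, on the other strand, and Tmed5 fell by 4.01 (SE 0.25).

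Exceptions in this list were Tet1 and Bmi1, whose ratio fell. Tet1, which oxidises methylated cytosine, fell by 1.45 (SE 0.28) while its level fell in both fractions, from 851 to 1150 CPM in mESC chromatin to 39.4 to 57.2 CPM in mNPC. Bmi1, a core Polycomb protein, fell by 1.44 (SE 0.26) while its level rose in both, from 3.94 to 6.19 CPM to 90.1 to 109 CPM in chromatin. Rbbp4, a histone chaperone shared by several complexes, and Jarid2 had differences of -0.27 ± 0.20 and 0.60 ± 0.33 and did not pass.

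Genes of mitosis and DNA replication rose in 14 of 46 and fell in 1, with a median difference of 0.62. This count depends on scaling and on single libraries, since 5 rose with library totals, 8 without the mESC chromatin library numbered 1 and 7 without either of 2 mESC cytoplasm libraries. Mcm7, a subunit of the replicative helicase that hosts microRNAs in its introns, rose by 1.34 ± 0.19, while Mcm5 and Top2a were at 0.37 ± 0.29 and 0.48 ± 0.23. Ccne2, a cyclin of the G1/S step, fell by 2.36 (SE 0.43). Proteasome and chaperonin genes were positive in most members but rarely past the minimum size: 3 of 39 rose, 7 without the mESC chromatin library numbered 3, and none fell, with a median of 0.37 that was 0.16 with library totals and as low as 0.11 with 1 library left out, the mESC cytoplasm library numbered 3. Cct5 of the chaperonin ring and Psmd1 of the proteasome lid-base junction rose by 1.45 ± 0.21 and 1.48 ± 0.26.

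The 15 genes with the largest falls by the naming rule included 9 whose ratio changed side. In 13 of the 15 the cytoplasmic level was higher in mNPC. Reep3, an ER-shaping membrane protein (chromosome 10, 67009189 to 67096988, - strand), was well measured in all groups, at 43.4, 37.6 and 50.9 CPM in mESC chromatin and 89.3, 83.8 and 76.1 CPM in mNPC chromatin. Its cytoplasmic levels were 11, 7.06 and 8.5 CPM in mESC and 415, 403 and 439 CPM in mNPC, and the difference was -4.65 ± 0.22 (adjusted p = 9.4e-14). Reep3 overlaps Jmjd1c on the other strand. Dynlt3, a dynein light chain, had overlapping chromatin levels of 14.6 to 34 CPM and 20.6 to 27.8 CPM, while its cytoplasm went from 5.94 to 12.4 CPM to 134 to 161 CPM, a difference of -4.01 ± 0.37. Uevld, an enzyme-like protein of the ubiquitin conjugating family, was at 112 to 152 CPM in mESC chromatin and 4.78 to 6.11 CPM in mESC cytoplasm, but at equal levels of 34.5 to 45.1 CPM in both mNPC fractions, a difference of -4.52 ± 0.27.

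Several of these genes belong to neural or glial cells and had little cytoplasmic RNA in mESC. Slc25a18, a mitochondrial glutamate carrier, had 115 chromatin and 7 cytoplasmic counts over the mESC libraries and 4016 and 13356 over those of mNPC, a difference of -5.30 ± 0.60. Gpm6a, a neuronal membrane glycoprotein, had 59 and 4 counts in mESC and 12030 and 38664 in mNPC, with -5.04 ± 0.68. Adora1, the adenosine A1 receptor, had 36 and 4 counts in mESC and a difference of -4.16 ± 0.54. In these genes the mESC ratio rests on the few counts printed, while that of mNPC rests on 1334 or more. Slc23a1, a vitamin C transporter, went the other way in level, from 75.3 to 98.1 CPM in mESC chromatin to 0.0942 to 0.335 CPM in mNPC, with -5.22 ± 0.63. The others were Kctd12b (-4.20 ± 0.67), Cav2 of caveolae (-4.20 ± 0.48), the synaptic vesicle protein Svop (-4.15 ± 0.49), Cldn34c1 (-4.11 ± 0.47), the myelin protein Pmp22 (-4.07 ± 0.69), Prrg4 (-4.01 ± 0.48), the glypican Gpc6 (-3.95 ± 0.49) and Tmed5. All 15 were negative on log2(TPM + 1), a second quantification of the libraries in which they were chosen, so this is not a separate check.

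The 15 genes with the largest rises by the naming rule included stem cell and germ line genes that were nearly silent in mNPC. In 14 of the 15 the cytoplasm was lower in mNPC, in 13 the chromatin was lower as well, and in 13 both mNPC fractions were under 10 CPM. Lin28a, an RNA-binding protein that blocks let-7 maturation in stem cells, stood at 303, 524 and 509 CPM in mESC cytoplasm and 39.2, 60.6 and 66.1 CPM in mESC chromatin. In mNPC it stood at 0.043, 0.0551 and 0.224 CPM in cytoplasm and 0.703, 0.471 and 0.603 CPM in chromatin, which is 5 and 33 counts. The few mNPC counts of Lin28a were thus mostly from chromatin, and the difference was 5.6 ± 0.75 (adjusted p = 1.1e-06). Isyna1, inositol phosphate synthase, followed the same course (5.49 ± 0.71), with 6 cytoplasmic counts over the mNPC libraries. Dnd1 and Ddx4, RNA-binding proteins of the germ line, rose by 4.93 ± 0.43 and 4.39 ± 0.29, with chromatin levels of 3.16 to 3.77 CPM and 9.79 to 12.2 CPM in mNPC. Genes on the other strand overlap Lin28a, Dnd1 and Crb3 here, and Slc23a1, Cav2, Adora1 and Svop among the largest falls.

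Crabp2, a retinoic acid carrier, kept its chromatin level at 1.56 to 2.98 CPM in mESC and 2.5 to 3.55 CPM in mNPC, while its cytoplasm went from 7 to 13 CPM to 0.517 to 0.771 CPM, a rise of 4.27 ± 0.44. Tagap1 was the exception in level, since its chromatin went from 3.53 to 4.61 CPM to 68.5 to 92.4 CPM and its cytoplasm from 7.22 to 10.5 CPM to 12.5 to 17 CPM, and its ratio rose by 3.6 ± 0.23. The others were Syne4 (4.77 ± 0.44), the polarity protein Crb3 (4.63 ± 0.58), H2-M5 (4.32 ± 0.34), the adenylate kinase Ak7 (4.16 ± 0.43), the epithelial GTPase Rab25 (4.09 ± 0.48), Ubap1l (3.89 ± 0.37), Bspry (3.68 ± 0.49), Rinl (3.44 ± 0.49) and the 14-3-3 protein Sfn (3.37 ± 0.75). All 15 were positive on log2(TPM + 1), but those values come from the same libraries in which the genes were chosen. For genes near 0 in both mNPC fractions, the sign there mostly follows the mESC ratio.

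Across the pluripotency list, 12 of 52 members rose and 4 fell, with a median difference of 0.70, and 23 rose and 7 fell on log2(TPM + 1). The level was called lower in mNPC chromatin for 44 members and in mNPC cytoplasm for 47. The median ratio of the list was -0.96 in mESC and 0.0 in mNPC. For members near 0 in both mNPC fractions, the difference on log2(TPM + 1) mostly restates the mESC ratio. With the 20 members at 3 or fewer counts over a group set to the floor the median was 0.74, which takes a ratio near 0 for members silent in mNPC. Ncoa3, a coactivator that sustains self-renewal, remained measurable, with chromatin at 160 to 256 CPM in mESC and 105 to 114 CPM in mNPC and cytoplasm at 277 to 363 CPM and 31.1 to 42.3 CPM, and it rose by 2.25 ± 0.23. Rif1, which times replication, rose by 1.99 ± 0.29. Nanog, a core factor, rose by 1.59 ± 0.40 on mNPC levels under 2 CPM, and its call was lost (1.12, edgeR adjusted p = 0.051) without the mNPC chromatin library numbered 1. The receptor subunits for LIF fell instead: Lifr by 1.5 (SE 0.24) and Il6st, the shared gp130 chain, by 1.31 (SE 0.19), with Lifr at 20.2 to 30.7 CPM in mESC cytoplasm and 50.7 to 58.2 CPM in mNPC cytoplasm.

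Neural progenitor and radial glia genes were called higher in mNPC for 41 of 49 members in chromatin and 41 in cytoplasm. The ratio fell in 10 and rose in 3, where 17.7% of all genes fell and 10.3% rose. The median difference was -0.23 (-0.24 with 7 members at the floor). Slc1a3, the glutamate transporter GLAST (chromosome 15, 8634124 to 8710764, - strand), stood at 57.5, 90.8 and 97.6 CPM in mESC chromatin and 3.61, 7.4 and 6.93 CPM in mESC cytoplasm. In mNPC it stood at 971, 942 and 818 CPM and 797, 675 and 964 CPM, nearly equal, and the difference was -3.6 ± 0.28 (adjusted p = 2.1e-10). Vim, the intermediate filament vimentin, fell by 1.40 (SE 0.19), with cytoplasmic levels of 2880 to 3167 CPM in mNPC. Nes, the intermediate filament nestin, rose by 1.11 ± 0.40, but Nes lost its call without any of 5 libraries and stood at -1.06 on log2(TPM + 1). The Notch target Hes1 rose by 1.3 ± 0.31 and was at 0.80 without the mESC cytoplasm library numbered 1. Ptprz1, a receptor phosphatase of radial glia, had a difference of -0.24 ± 0.32 in the counts and 2.92 on log2(TPM + 1). The 3 rises became 1 without either of 2 libraries and were 8 on log2(TPM + 1), where the median was -0.04. With 1 library left out the median ran from -0.41 to -0.08.

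Synaptic receptor and ion channel genes fell in 14 of 48 and rose in 3 (1 without the mESC cytoplasm library numbered 1). Their median difference was -1.01 (-0.93 with 16 members at the floor), and its sign turned in the transcript values. On log2(TPM + 1), 5 fell and 9 rose, with a median of 0.19. On log2(TPM + 0.1), 8 fell and 6 rose, with a median of 0.14, so the calls turned only with the larger added value. Gabbr1, a GABA-B receptor subunit (chromosome 17, 37045966 to 37075067, + strand), fell in the counts and on log2(TPM + 1). Its chromatin levels overlapped, at 297, 298 and 371 CPM in mESC and 399, 340.0 and 395 CPM in mNPC. Its cytoplasmic levels did not, at 14.4, 14.3 and 16.9 CPM and 188, 146 and 171 CPM, and the difference was -3.23 ± 0.23 (adjusted p = 4.1e-11). Grik5, a kainate receptor subunit, fell by 1.3 (SE 0.26). Another kainate receptor, Grik3, rose by 3.63 ± 0.43 as its level fell in both fractions, although it was at 0.17 on log2(TPM + 1). The partner subunit Gabbr2 had 0.204, 0.244 and 0.179 CPM in mESC chromatin, too few for a call (-1.68 ± 0.97).

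Neuronal splicing and RNA-binding regulators fell in 10 of 32 and rose in 1. Their median difference was -0.84 (-0.80 with 3 members at the floor), and -0.41 on log2(TPM + 1). The rise was lost when any of 4 libraries was left out. Msi2, a progenitor translation regulator, fell by 2.12 (SE 0.18), with cytoplasmic levels of 81.7 to 95.7 CPM in mESC and 274 to 316 CPM in mNPC. Qk, which shapes glial splicing, fell by 1.74 (SE 0.34), and Nova1, a neuronal splicing factor, by 1.13 (SE 0.27). Ptbp1 and Ptbp2, paralogous splicing repressors whose exchange marks neuronal differentiation, had differences of 0.78 ± 0.26 (adjusted p = 0.019) and 0.04 ± 0.25 (adjusted p = 0.97). Ptbp1 was richer in cytoplasm in both lines and its 3 mNPC ratios lay above those of mESC, while Ptbp2 was richer in chromatin to the same degree in both, with ratios of 2.14 and 2.18. Neuronal markers fell in 6 of 39 and rose in 2, where 17.7% of all genes fell and 10.3% rose. Their median was -0.30 (-0.15 with 11 members at the floor). On log2(TPM + 1) 2 fell and 4 rose, with a median of 0.07. The 2 rises became 1 without the mESC cytoplasm library numbered 1, and the median ran from -0.53 to -0.19 with 1 library left out. Gap43, a growth cone protein, fell by 2.93 (SE 0.37), and Camk2a, a synaptic kinase, rose by 1.6 ± 0.33.

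Of the nuclear long noncoding RNAs, 4 of 14 tested fell and none rose, with a median difference of -0.82. The count moved with the processing: 6 fell and 1 rose on log2(TPM + 1), 7 fell and 1 rose on log2(TPM + 0.1), and 6 fell without the mESC cytoplasm library numbered 3. Tug1 stood at 324, 327 and 319 CPM in mESC chromatin and 132, 148 and 136 CPM in mNPC chromatin, against 38.8, 26.9 and 25.4 CPM and 124, 123 and 109 CPM in cytoplasm. Its ratio in mNPC was near 0, at 0.22, and the difference was -3.19 ± 0.22 (adjusted p = 2.1e-11). Neat1, the scaffold of paraspeckles, fell by 1.92 (SE 0.53) as its chromatin level fell from 654 to 1204 CPM to 17.3 to 31.9 CPM. Ftx, a regulator of Xist, fell by 1.34 (SE 0.27). Malat1, the speckle RNA, kept ratios of 6.24 and 6.13, a difference of -0.11 ± 0.29 whose sign turned under 4 settings. Xist was at 5237 to 6245 CPM in mNPC chromatin and 59.6 to 80.1 CPM in cytoplasm but had no count in mESC cytoplasm, so no difference is given. The Mir290-295 loci of stem cells reached 5.28 to 105 CPM in mESC chromatin and had no count in the 6 mNPC libraries.

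Marker lists of glia were called more often downward than upward in the counts but not on log2(TPM + 1). Astrocyte genes fell in 6 of 14 and rose in 1, where 17.7% of all genes fell. Their median was -0.80 (-0.71 with 5 members at the floor). On log2(TPM + 1), 1 fell and 2 rose, with a median of 0.54. On log2(TPM + 0.1), 3 fell and 1 rose, with a median of 0.0. Without the mESC chromatin library numbered 3 the median of the counts was -0.32. Gfap rose by 1.86 ± 0.58, with 1 mNPC chromatin library at 158 CPM and the others at 74.6 and 58.4 CPM. Oligodendrocyte lineage genes fell in 4 of 15 and rose in 2, but on log2(TPM + 1) 2 fell and 4 rose, and on log2(TPM + 0.1) 3 did each. Without either of 2 mESC libraries 2 fell and 1 rose. Bcas1, a marker of early myelinating cells, rose by 2.20 ± 0.24. Pdgfra, at -1.39 ± 0.45, lost its call without either of 2 mESC libraries (-1.07 and -1.15, edgeR adjusted p = 0.057 and 0.061) and stood at 1.03 on log2(TPM + 1). Fibroblast and mural genes fell in 3 of 14 and rose in 1, endoderm and mesoderm genes in 1 and 1 of 14, and microglia genes in 1 and 1 of 14, and 7, 7 and 11 members of these 3 lists had 3 or fewer counts over a group. The counts of 1 in the endoderm and microglia lists were between 0 and 2 under the alternatives. Fbln1 and Fbln2, matrix fibulins, fell by 1.98 (SE 0.27) and 2.34 (SE 0.36), and Fbln2 stood at 0.57 on log2(TPM + 1).

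Immediate early and feedback genes rose in 7 of 45 and fell in 5, where 10.3% of all genes rose and 17.7% fell. The median difference was 0.36 (0.42 with 3 members at the floor), and 0.10 to 0.65 with 1 library left out. The 7 became 11 or 12 without the mESC chromatin or the mNPC cytoplasm library numbered 3. Klf10 and Per1 rose by 1.75 ± 0.31 and 1.38 ± 0.22, while the ERK feedback inhibitors Spred1 and Spred2 fell by 2.24 (SE 0.22) and 1.16 (SE 0.24). Cytoskeletal genes gave 6 rises and 7 falls among 43, near the shares of all genes. Their median was 0.03, and its sign turned with library totals (-0.18). Dync1h1, the dynein heavy chain, rose by 2.33 ± 0.34, with cytoplasmic levels of 406 to 868 CPM in mESC and 61.5 to 148 CPM in mNPC. Flna and Spag9 rose by 1.21 ± 0.27 and 1.24 ± 0.28, at 0.99 and 0.78 without the mESC cytoplasm libraries numbered 3 and 1. Tmsb10, an actin-binding peptide, fell by 2.03 (SE 0.33), and Tubb5, an abundant tubulin, had a difference of -0.04 ± 0.22. Of 19 glycolysis genes 2 rose, near the share of all genes, and 2 fell. The rises were 4 without the mESC chromatin library numbered 3 and 1 without any of 7 others. Hk1 rose by 1.28 ± 0.20, and Slc2a3, a glucose transporter, and Gpi1 fell by 1.94 (SE 0.19) and 1.72 (SE 0.32).

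The shift varied with gene span and level. In the decile of genes with the longest span, 119010 to 4434882 bases, 27% fell and 8.78% rose, and in the decile with the shortest, 17.4% fell and 3.46% rose. The counted region includes introns, and on log2(TPM + 1), which counts annotated transcripts, 10.6% fell and 15.6% rose in the longest decile. Falls thus outnumbered rises among the longest genes in the counts over the gene span, and rises outnumbered falls in the transcript values. Small nucleolar RNA genes fell in 68 of 254 (26.8%) and rose in none. By level, 17.1% fell and 17.5% rose in the highest decile of mean CPM, and 24.6% fell and 8.89% rose in the fourth lowest.

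**Figure D5:**
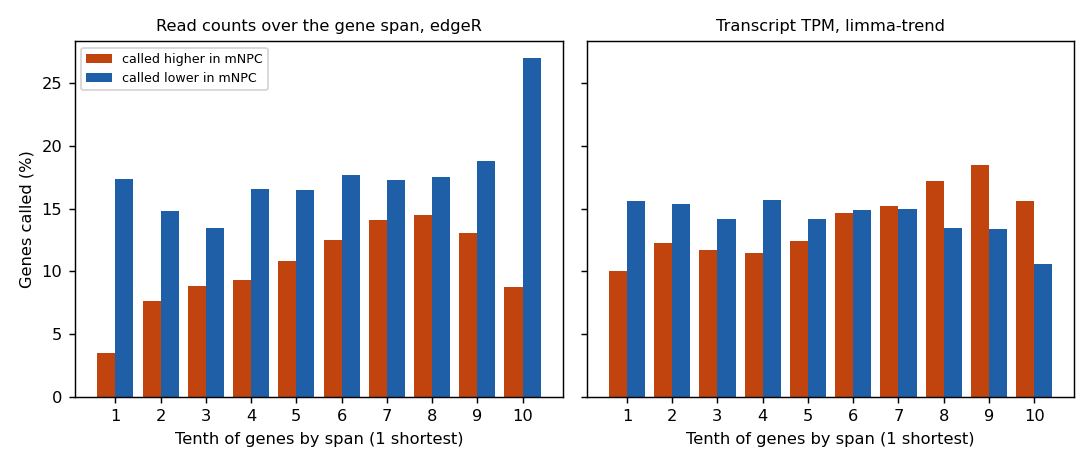
Percentage of genes called higher or lower in mNPC (y axis) in each decile of the genes tested by span, from shortest to longest (x axis), for edgeR on counts over the gene span (left) and limma-trend on log2(TPM + 1) (right). In the longest decile 27% fell by counts and 10.6% by TPM.

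Values from the other fractions and the neurons stand beside these as description. The nucleoplasm-to-cytoplasm difference between the lines, which shares the cytoplasm libraries with the main contrast, had a median of -0.83 for ribosomal protein genes, -1.10 for ER genes, 0.10 for speckle genes and 0.47 for chromatin regulators, against -0.24 for all genes. Among single genes it was 0.51 for Srrm2, 0.34 for Pabpn1, 2.02 for Chd4, -0.80 for Rpl4, -0.98 for Canx and -3.54 for Gas5. In mCtx, which shares no library with the contrast, the median chromatin-to-cytoplasm ratio was -3.30 for ribosomal protein genes, between -2.69 in mESC and -4.25 in mNPC. For ER genes it was -0.81, beside 0.64 and -0.75, for speckle genes 2.37, beside 1.58 and 2.57, and for chromatin regulators 0.87, beside -0.29 and 0.33. In these last 3 lists the median of the neurons was nearer to that of mNPC than to that of mESC, which was not tested.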

How the data were processed

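Polyadenylated RNA of chromatin, nucleoplasm and cytoplasm was measured in mESC, mNPC and mCtx, 3 replicates each. Per the submitters' processing notes, STAR, featureCounts, kallisto 0.43.0 and the mm10 build were used. The deposited read counts are whole numbers per gene. The length the authors' table gives equals the full span in all 37332 genes, so intronic reads count. Its strand setting, handling of multi-mapping reads and annotation release were not given in the sources used here. A second deposited table holds TPM values, by the authors, for 53379 genes, of which 35509 are in both. Symbols were matched to GENCODE M21 for 35533 genes, and 67.7% of these had the same span.

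Counts of 27 libraries were fitted with 9 group means in edgeR 4.0.16 (R 4.3.3) with TMM scaling, filterByExpr and quasi-likelihood F-tests, and p-values were Benjamini-Hochberg adjusted over 18226 genes. A call required an adjusted p under 0.05 and a log2 difference of at least 1. The standard error is the log2 difference over the square root of F. The 12 libraries compared held 12073063 to 23608781 counts, and no fold is printed for a gene with 3 or fewer counts over a group. Such genes stayed in the fit, in the counts of calls and in the list medians. They made up 374 of the genes called. On simulated counts with 18226 genes, 78 of 100 changes of 1.5 and 99 of 100 of 3 (log2) were recovered, and 5 of 17989 unchanged genes were called. Changes were planted only in genes over 1 CPM in each of the 4 groups. Libraries were drawn independently, and genes whose simulated level was capped were not counted as unchanged. The rates therefore do not cover changes in genes nearly silent in a group, or libraries that vary together. Alternatives used DESeq2 1.42.0, limma 3.58.1 on log2(TPM + 1) and log2(TPM + 0.1), other filters and scalings, and each library left out.

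Genes named are the 15 largest calls in each direction, reaching 10 CPM in a group, with ratios that did not overlap between the lines and free of same-strand overlap, predicted symbols and low counts, and the most abundant called and uncalled members of each list. Of 149 called genes so named, 22 that lost the call without any of at least 3 libraries were left out, except Nes, as were 4 uncalled genes whose sign turned under more than 4 alternatives. Ptbp2 was kept although its sign also turned under more than 4. Some further genes picked by this choice are not reported here. The members and gene lists were chosen with earlier results of these data known. In same-numbered chromatin and cytoplasm libraries, deviations from the group means correlated at 0.615, 0.31 and 0.553 in mESC and 0.0986, 0.137 and 0.0333 in mNPC, so numbers were not used as pairs.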

Additional observations from a re-analysis of the deposited data

Results flagged for a closer look

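The contrast is itself a test of whether chromatin-to-cytoplasm ratios differ between the lines, and 5104 genes passed it. In 204 of them the ratio was called on opposite sides in the 2 cell types. Among the 15 genes named for the largest change in each direction, 17 were of this kind. Richer in cytoplasm in mESC and in chromatin in mNPC were Lin28a (log2 difference 5.6), Dnd1 (4.93), Crb3 (4.63), Crabp2 (4.27), Ak7 (4.16), Rab25 (4.09), Tagap1 (3.6) and Rinl (3.44). The reverse held for Slc25a18 (-5.30), Gpm6a (-5.04), Reep3 (-4.65), Cav2 (-4.20), Kctd12b (-4.20), Adora1 (-4.16), Pmp22 (-4.07), Dynlt3 (-4.01) and Prrg4 (-4.01). Of these 17, Lin28a had 5 counts over the mNPC cytoplasm libraries, and Gpm6a and Adora1 had 4 each over those of mESC cytoplasm.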

How the results depend on the processing

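The number of genes called stayed within 1.5 times of 5104 in the other count fits, from 4724 to 5400 with 1 library left out, and DESeq2 called 5182, of which 4962 were the same gene and direction. Without a minimum size 7447 genes passed, 3205 upward. The median log2 difference of all genes moved from -0.19 to -0.29 with a filter of 1 CPM or with the 12 libraries alone, -0.40 with library totals, -0.24 without a filter or without mitochondrial genes, 0.0 on log2(TPM + 0.1) and 0.01 on log2(TPM + 1), and ran from -0.37 to -0.14 with 1 library left out. The cause was not tested. Among the 142 genes with values in the text, direction and call held for 142 with DESeq2, 135 with library totals and 111 on log2(TPM + 1). Most genes whose call was lost without any of at least 3 libraries, or whose sign turned often, had been left out beforehand. These counts therefore do not measure how stable the calls are in general. Signs reversed on log2(TPM + 1) for Fbln2 (0.57), Pdgfra (1.03), Bcan (0.80), Ptprz1 (2.92), Nes (-1.06), Atp5b (0.27) and Tubb5 (0.38), and on log2(TPM + 0.1) for Ptprz1 (1.11), Nes (-1.05), Atp5b (0.27) and Tubb5 (0.38). With 1 library left out, Atp5b ran from -0.30 to 0.05, Tubb5 from -0.21 to 0.10, Bcan from -0.38 to 0.04 and Fn1 from -0.64 to 0.02. Malat1 was at 0.07 and 0.28 on log2(TPM + 0.1) and log2(TPM + 1), at 0.09 without both mESC libraries numbered 1, and from -0.25 to 0.05 with 1 library left out. Ptbp2 was at -0.09 with a filter of 1 CPM and with the 12 libraries alone, -0.20 with library totals, -0.05 without a filter, -0.02 without mitochondrial genes, and from -0.19 to 0.14 with 1 library left out. With library number as a replicate block 5456 genes were called (1982 upward), and none of the 142 genes kept in the text changed its call. Every library correlated best with its own number in both lines, a hint from the data and not from the design. On log2(TPM + 1), 11 mitochondrial mRNAs fell and the list counts became 5 rises of hnRNP genes, 5 of proteasome and chaperonin genes, 6 of secreted proteins, 4 of glycolysis genes, 2 falls of immediate early genes and 4 of cytoskeletal genes. With library totals 1 hnRNP gene, 1 secreted protein gene and 1 neural progenitor gene rose. With DESeq2 5 fibroblast and mural genes fell. Low counts limit the ratios of genes nearly silent in 1 line.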
